A study of Mus musculus with 3 samples.

Results

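Dividing microglia were compared with resting microglia among cells isolated from mouse brains that carried E0771 metastases (E0771 is a cell line from a mouse mammary carcinoma). Transcripts, 35 antibody tags and sample hashtags were counted in the same single cells by CITE-seq, in 1 capture of 12908 cell barcodes. A barcode counted as a microglial cell when it had at least 500 genes, at most 15% mitochondrial UMIs (unique transcript molecules), 1000 to 30000 UMIs, at least 70% of its hashtag counts from 1 mouse hashtag, at least 3 of the 6 identity genes P2ry12, Tmem119, Fcrls, Gpr34, Sall1 and Siglech, and at most 1 UMI of the epithelial keratin Krt8. This left 497 microglia. Those with 3 or more UMIs summed over 10 cell cycle genes (Mki67, Top2a, Birc5, Cdk1, Ccna2, Ccnb1, Ccnb2, Tyms, Rrm2 and Mcm3) were called dividing (138 cells), those with 0 were called resting (174 cells), and the other 185 cells, with 1 or 2 UMIs, were left between the sides. The sides were thus chosen by the measured UMIs of these 10 genes, so their own values are a description and were not tested.

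All mice were female C57Bl/6 animals of 2 to 3 months, injected with E0771 cells through the carotid artery. Treated mice were given anti-VISTA together with anti-PD-L1, which block immune checkpoints, every other day from day 3, and others were not. The labels do not tie a hashtag to a treatment, so treated and untreated brains were not compared. There were 8 hashtag samples, and dividing and resting cells were compared within those that held enough cells of both sides. The labels also give 1, 2 or 3 brain hemispheres per biological sample in different entries. They do not say whether each hashtag marks a separate animal, so p-values here measure only the spread between hashtag samples. Both sides held at least 10 cells in hashtag samples 5, 6, 7 and 8, which gave 4 pairs with 103 dividing and 152 resting cells.

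Microglia are the resident macrophages of the brain, and in the healthy adult they divide rarely and renew themselves locally under signals through the receptor Csf1r. Injury, inflammation and tumour growth are known to bring them into the cell cycle. In the cycle, factors of the E2F family switch on the genes of DNA synthesis in S phase, and a later wave of genes for chromosome condensation, the spindle and cytokinesis follows in G2 and mitosis, many of them through a promoter element called CHR (cell cycle genes homology region).

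Of all microglia by the rule, 27.8% were dividing (138 of 497, 95% Clopper-Pearson interval 23.9 to 31.9%, which covers counting error only). In the paired samples the share was 20.3% in sample 5 (25 of 123), 36.6% in sample 6 (41 of 112), 14.0% in sample 7 (13 of 93) and 26.4% in sample 8 (24 of 91). Sample 6 stood highest and sample 7 lowest among these 4, but their microglia differed in depth (medians of 11261 and 7517 UMIs), and with 10 or more cycle UMIs the shares were 9.82 and 7.53%, with intervals that overlapped (5.01 to 16.9% and 3.08 to 14.9%). The other 4 hashtag samples held few microglia, with 0 dividing cells of 6 in sample 1 (where the limit of 3 counts of the total allows a share of up to 50.0%), 12 of 18 in sample 2, 20 of 38 in sample 3 and 3 of 16 in sample 4. Depth moved with the rule. Dividing cells had a median of 16678.5 UMIs and resting cells 6922, and the gap was present in each pair, with 15760 against 6912.5 in sample 5, 17703 against 7460 in sample 6, 24048 against 6726.5 in sample 7 and 12177 against 6798 in sample 8. When every cell was thinned to 2000 UMIs and 2 or more cycle UMIs were asked for, 12.6% of microglia counted as dividing (62 of 493; 4 shallower cells were left out). Neutrophils, which no longer divide once mature, reached 3 cycle UMIs in 7.77% of cells at a median of 3203 UMIs, and 5.21% after thinning. Ms4a7-bearing macrophages did so in 12.3% of cells at a median of 13176 UMIs, and 2.11% after thinning. Ms4a7 was also detected in 24 of the 103 neutrophil barcodes (23.3%). The share of macrophages or doublets among the neutrophils was not tested. The same capture held 4577 carcinoma barcodes (at least 10 UMIs of Krt8, with no upper UMI limit). Of these 98.6% reached 3 cycle UMIs at a median of 87642 UMIs, and 54.4% counted as dividing after thinning. The part of stray carcinoma transcripts in the cycle UMIs of microglia was not tested.

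The 138 dividing cells were unlike one another. Mki67, which coats mitotic chromosomes, was detected in 66 of them, and 95 had a UMI of Mki67, Top2a (the topoisomerase that untangles replicated DNA) or Birc5 (survivin, of the chromosomal passenger complex). In 12 cells every cycle UMI came from Mcm3, a subunit of the replicative helicase. Just inside the threshold were 31 cells with 3 UMIs, and just outside it 61 cells with 2. A list of 46 mitosis genes that the rule did not use summed to 369 CPM (the standard scaled count: UMIs of a gene or list relative to all UMIs of the same cells, unadjusted for gene length) in resting cells, 383 in cells with 1 or 2 cycle UMIs, 420 with 3 or 4, 642 with 5 to 9, and 5932 in the 52 cells with 10 or more. The name dividing therefore has support from genes outside the rule mainly in these 52 cells. In the other 86 it rests on the rule and on the DNA replication genes, since a list of 38 of those summed to 339 in resting cells, 423 with 1 or 2 cycle UMIs, 778 with 3 or 4, 1199 with 5 to 9 and 2079 with 10 or more. By these lists 57 dividing cells had more mitosis than replication UMIs, 77 had more replication UMIs and 4 had equal numbers.

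**Figure D1:**
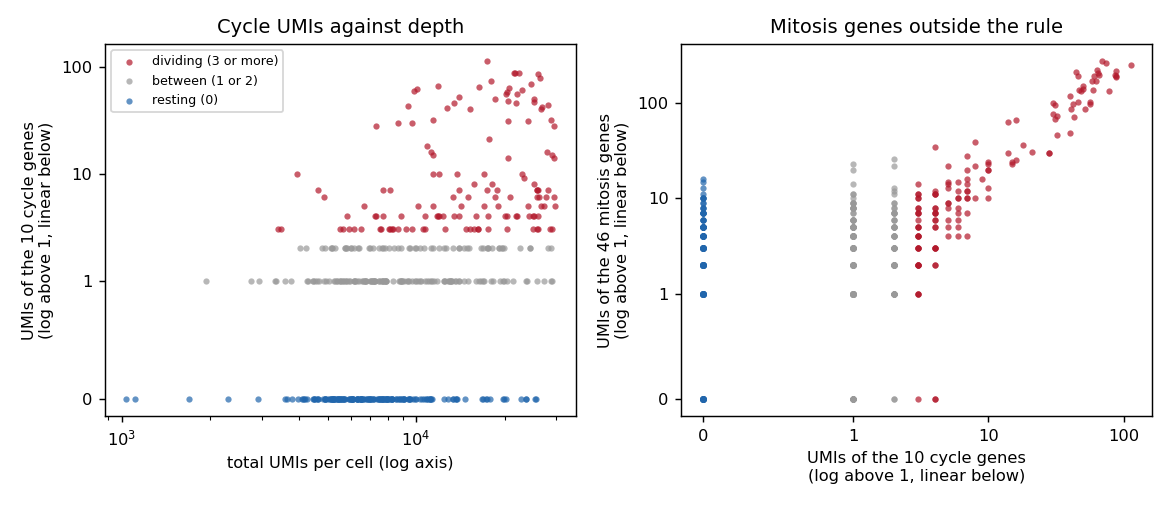
Each point is 1 of the 497 microglia. Left, UMIs of the 10 cycle genes against total UMIs, with dividing cells (red) deeper than resting cells (blue) at medians of 16678.5 and 6922 UMIs; right, UMIs of the 46 mitosis genes outside the rule against the cycle UMIs, where cells with 10 or more form an upper group.

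Summed over hashtag samples, the cells with 3 to 9 cycle UMIs also carried more transcripts typical of tumour macrophages. Apoe, a lipid transport protein made by macrophages, stood at 2689 CPM in resting cells, 5796 with 1 or 2 cycle UMIs, 9647 with 3 or 4, 6835 with 5 to 9 and 2468 with 10 or more. Ms4a7, a membrane protein of tumour and border macrophages that parenchymal microglia largely lack, stood at 220, 399, 561, 323 and 46.4 in the same order. The hashtag samples differed in this. With 3 to 9 against 0 cycle UMIs, Apoe was higher in samples 2, 3, 5, 6 and 7. Ms4a7 was higher in samples 2, 5, 6 and 7. Sample 8 ran the other way, with Apoe at 1323 against 2150 CPM and Ms4a7 at 31.2 against 201. In sample 3, with 5 resting cells, Ms4a7 stood at 903 against 1606. At least 3 UMIs of Ms4a7 were present in 22.5% of dividing and 8.62% of resting cells. After thinning to 2000 UMIs, at least 3 of the 6 identity genes were still detected in 55.1% of dividing and 84.8% of resting cells. The share of macrophages or of microglia and macrophage doublets on each side was not tested. The hashtag limit leaves out barcodes with under 70% of their hashtag counts from 1 hashtag, how many doublets it removed was not measured, and doublets within 1 hashtag cannot be seen.

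**Figure D2:**
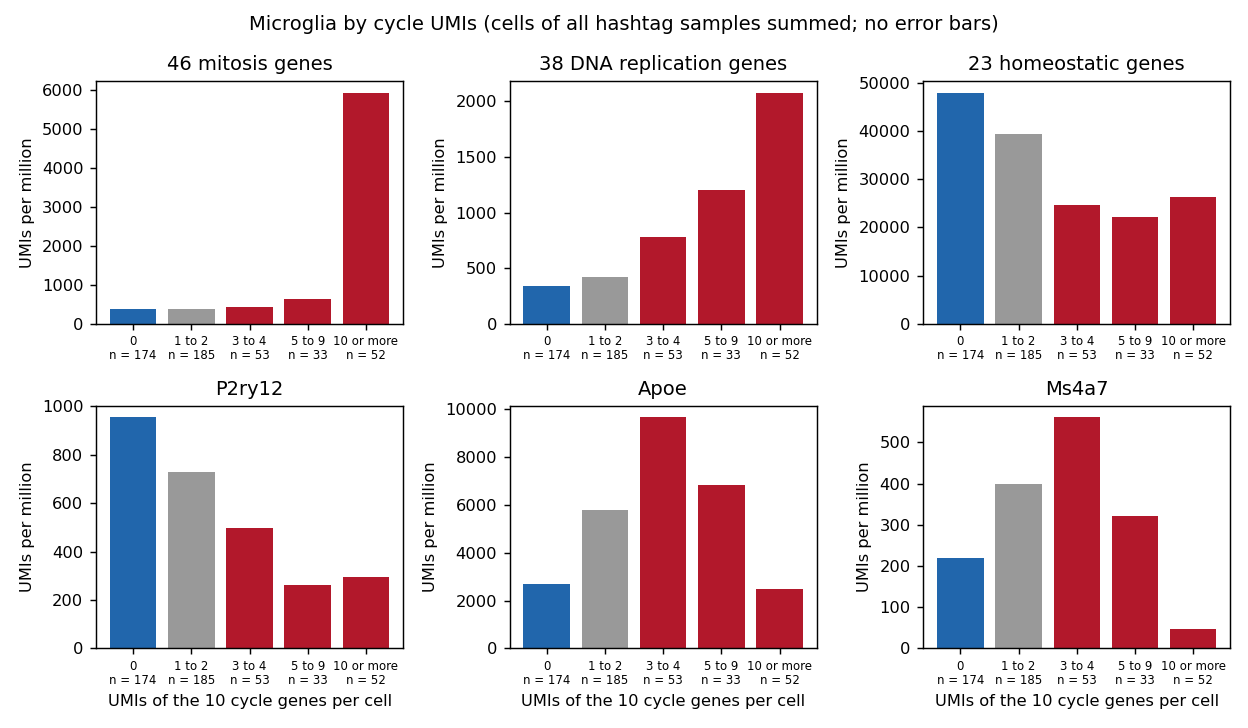
Bars give CPM, summed over the cells of all hashtag samples, for microglia in 5 classes of cycle UMIs (blue resting, grey between, red dividing). Mitosis genes stand at 5932 in the 52 cells with 10 or more and at most 642 elsewhere, and Apoe and Ms4a7 peak at 9647 and 561 in cells with 3 or 4.

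Counts were then summed per hashtag sample and side and compared with edgeR's quasi-likelihood test, with the hashtag sample as a block. Of 4564 genes tested outside the 10 rule genes and the 6 identity genes, 455 were higher in dividing microglia (9.97%) and 456 lower (9.99%) at a Benjamini-Hochberg adjusted p under 0.05. The median log2 fold change over these genes was -0.02. Leaving out sample 5 gave 239 higher and 209 lower genes, and leaving out sample 6 gave 312 and 283. Because depth and macrophage transcripts moved with the rule, many of the results below are set beside a second calling in which the sides were set on cells thinned to 2000 UMIs (2 or more cycle UMIs against 0, in samples 3, 5, 6 and 8). Median depths were then 13767 against 13707, 13591.5 against 8393.5, 14433.5 against 11261 and 8688 against 8557. This calling tested 3450 genes and called 159 higher (4.61%) and 94 lower (2.72%). Counts of list members below are to be read beside these shares over all genes, 9.97 and 9.99% in the first calling and 4.61 and 2.72% in the second. Of the 428 higher and 380 lower genes that it also tested, 100 were again called higher and 27 again called lower, and 326 and 329 kept their sign. The second calling also changed the threshold, took sample 3 in place of sample 7 and widened the resting side (90 cells against 46 in sample 5, and 80 against 29 in sample 6). The wider side took in cells that had cycle UMIs before thinning. In sample 6 these include cells first called dividing, since the first calling had 29 resting and 42 between cells there. This by itself can bring the sides closer. Depths still differed in samples 5 and 6. Where the callings differ, the part of depth cannot be told apart from these changes. The second calling draws on the same microglia and is not separate evidence.

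Genes of mitosis and DNA synthesis outside the rule were higher in dividing microglia. Of the rule genes, Mki67 had 283, 105, 324 and 283 CPM in dividing cells of samples 5, 6, 7 and 8 and 0 in resting cells by construction. Cdca8 (borealin, which targets the chromosomal passenger complex; chr4:124918465-124936917 on GRCm38.p6, the build of all positions here) had 80.9, 47.5, 117 and 139 CPM in dividing cells, and 5.39, 3.9, 0 and 0 in resting cells. Cenpf, a kinetochore protein (chr1:189640606-189688107), had 245, 34, 172 and 185 in dividing cells and 8.08, 7.8, 9.78 and 4.11 in resting cells. The sides did not overlap for either gene, and sample 6 was the lowest dividing sample for both. The log2 fold changes were 5.0 ± 0.51 for Cdca8 (standard error, edgeR adjusted p = 1.02e-05) and 4.34 ± 0.36 for Cenpf (edgeR adjusted p = 2.09e-06). Sides called after thinning gave 4.70 and 5.37. Ube2c, the ubiquitin-conjugating enzyme of the anaphase-promoting complex, averaged 196 ± 90.4 in dividing and 15.1 ± 11.7 in resting cells (SD, n = 4 each). Of the 46 mitosis genes 13 passed the filter on low counts, and all 13 rose, with Cenpe, Tpx2 and Cdca3 at log2 fold changes of 4.47, 4.28 and 3.31. That filter passes a gene on the side where it is high, so this count carries little weight. Fitted with no filter, where 5.18% of 14388 genes were higher and 3.07% lower, 43 of the 46 were higher and 0 lower. Several had no UMI in any resting cell. Against a floor of 3 UMIs over all resting cells, Cdc20, the activator of the anaphase-promoting complex, was at least 18.6-fold higher in dividing cells, and the checkpoint kinase Bub1b at least 13.9-fold higher.

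Of the 38 DNA replication genes 17 passed the filter and 16 rose, with a median log2 fold change of 2.31, and with no filter 30 of 38 were higher and 0 lower. Mcm5, a helicase subunit (chr8:75109468-75128439), had 58.1, 73.4, 54.7 and 70.7 CPM in dividing cells and 8.08, 11.7, 0 and 0 in resting cells. Tk1, the thymidine kinase of S phase, had 63.2, 44.8, 58.6 and 95.1 in dividing cells and 2.69, 0, 3.26 and 12.3 in resting cells. Every dividing sample stood above every resting sample for both. Their log2 fold changes were 3.51 ± 0.49 (edgeR adjusted p = 0.000228) and 3.80 ± 0.45 (edgeR adjusted p = 4.74e-05), and 2.06 and 3.86 with the sides called after thinning. Uhrf1 (which carries DNA methylation through replication), Lig1 (the ligase of lagging-strand synthesis) and the licensing factors Cdt1 and Orc6 rose by 3.28, 2.82, 2.59 and 2.52, and of these Uhrf1 was fitted after thinning, at 2.74. Pcna, the sliding clamp, changed less, with 78.4, 88.3, 74.3 and 78.8 in dividing cells and 51.2, 39, 35.9 and 37 in resting cells, a log2 fold change of 0.91 ± 0.24 (edgeR adjusted p = 0.0133), and stood at 1.13 after thinning without passing.

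Chromatin and tubulin genes rose too, 15 of the 16 fitted of 17, with a median log2 fold change of 1.29. Stmn1, a tubulin-binding protein of proliferating cells (chr4:134468320-134473843), had 592, 323, 551 and 639 CPM in dividing cells and 35, 39, 65.2 and 65.8 in resting cells. H2afz, a histone variant, had 1360, 1248, 1559 and 1068 in dividing cells and 501, 433, 372 and 436 in resting cells. Neither gene's sides overlapped, and the log2 fold changes were 3.34 ± 0.21 (edgeR adjusted p = 1.82e-07) and 1.54 ± 0.15 (edgeR adjusted p = 4.61e-06). H2afx and Tubb4b rose by 2.80 and 2.04. With the sides called after thinning, Stmn1, H2afz, H2afx and Tubb4b stood at 3.43, 1.66, 3.62 and 2.66. Outside the lists, the genes that rose most in every pair were Hist1h1b (6.31), Spc24 (4.64), Pclaf (4.62), Hist1h2ae (4.56), Nes (2.95), Ezh2 (2.67), Atad2 (2.17), Ifi211 (2.00), Lsm2 (1.97) and Il1rn (1.95). Pclaf, a PCNA-binding protein, had 91, 96.4, 97.7 and 95.1 in dividing cells and 0, 7.8, 3.26 and 4.11 in resting cells. Ezh2, the methyltransferase of Polycomb repressive complex 2, had 104, 72, 109 and 130 in dividing cells and 8.08, 19.5, 16.3 and 20.6 in resting cells. With the sides called after thinning, Hist1h1b, Spc24, Pclaf, Hist1h2ae, Ezh2, Atad2 and Lsm2 were again called higher, Ifi211 turned to -0.32, Il1rn stood at 0.55 without passing, and Nes was not fitted. The 2 histone genes belong to a family of near-identical copies, so their counts are uncertain.

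The promoters of these genes are shown because the mitosis and replication genes moved together and their known elements can be read in the sequence. Windows from 250 bases before to 50 bases after the start site were taken from RefSeq on build GRCm38.p6 and searched on both strands for the CHR letters TTTGAA or TTCGAA, for CCAAT, and for the E2F letters TTTGGCGC, TTTCCCGC, TTTCGCGC or TTTGCCGC. A CHR match was present in 34 of 42 windows of the mitosis list (81.0%, for 38 of its 46 genes), in 6 of 35 windows of the DNA replication list (17.1%, 30 of 38 genes) and in 19.2% of all 32851 windows. An E2F match was present in 1 mitosis window (2.38%), 11 replication windows (31.4%) and 2.26% of all windows. CCAAT was present in 81.0, 57.1 and 37.4%. These shares describe the 300 letters of each window and not binding, and the lists were drawn from knowledge of the same pathways. The 3 mitosis and 2 replication genes with the largest increases whose window held a CHR or an E2F match are printed from 5′ to 3′ on the gene's strand. Capitals mark CHR and CCAAT matches in the first 3 and E2F and CCAAT matches in the last 2, read on either strand.
Cdca8, chr4:124936868-124937167, minus strand: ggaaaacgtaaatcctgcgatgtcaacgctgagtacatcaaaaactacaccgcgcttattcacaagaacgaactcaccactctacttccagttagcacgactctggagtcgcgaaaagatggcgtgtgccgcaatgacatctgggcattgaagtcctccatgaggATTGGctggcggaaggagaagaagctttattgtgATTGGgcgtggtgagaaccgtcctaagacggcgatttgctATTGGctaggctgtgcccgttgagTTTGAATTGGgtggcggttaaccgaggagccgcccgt
Cenpf, chr1:189688037-189688336, minus strand: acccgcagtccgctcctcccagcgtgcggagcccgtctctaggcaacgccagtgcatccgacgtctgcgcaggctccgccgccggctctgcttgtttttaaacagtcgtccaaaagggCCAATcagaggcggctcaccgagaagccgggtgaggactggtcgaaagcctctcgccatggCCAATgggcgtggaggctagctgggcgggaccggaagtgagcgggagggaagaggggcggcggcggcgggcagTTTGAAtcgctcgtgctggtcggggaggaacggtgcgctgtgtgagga
Ube2c, chr2:164769679-164769978, plus strand: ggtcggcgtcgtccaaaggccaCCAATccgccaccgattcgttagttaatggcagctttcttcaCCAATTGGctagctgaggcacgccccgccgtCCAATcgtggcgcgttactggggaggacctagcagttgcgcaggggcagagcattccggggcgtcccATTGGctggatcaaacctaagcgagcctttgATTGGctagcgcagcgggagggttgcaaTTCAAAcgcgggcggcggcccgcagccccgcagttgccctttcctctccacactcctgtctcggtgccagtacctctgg
Mcm5, chr8:75109259-75109558, plus strand: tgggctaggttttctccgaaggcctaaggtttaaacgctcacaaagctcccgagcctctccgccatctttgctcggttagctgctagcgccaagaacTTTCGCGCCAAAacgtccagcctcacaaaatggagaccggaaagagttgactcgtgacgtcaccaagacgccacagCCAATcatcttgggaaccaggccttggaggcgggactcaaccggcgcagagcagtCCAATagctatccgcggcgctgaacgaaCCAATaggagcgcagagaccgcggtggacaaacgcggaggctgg
Cdt1, chr8:122567765-122568064, plus strand: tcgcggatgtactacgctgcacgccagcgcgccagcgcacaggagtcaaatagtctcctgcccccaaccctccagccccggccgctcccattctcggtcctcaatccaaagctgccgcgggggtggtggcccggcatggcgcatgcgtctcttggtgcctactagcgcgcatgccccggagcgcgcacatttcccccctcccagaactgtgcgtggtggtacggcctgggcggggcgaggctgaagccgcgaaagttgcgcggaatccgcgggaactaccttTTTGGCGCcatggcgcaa
The Cdca8 window holds 4 CCAAT matches, of which the last shares a base with the CHR match, and the Ube2c window holds 6, of which 2 overlap. The 2 E2F matches of the Mcm5 window overlap on opposite strands.

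Of 15 genes of G1 cyclins and growth, 9 were fitted, of which 1 rose and 1 fell, near the shares over all genes (9.97 and 9.99%), so nothing is read from the list. Cdk4, the kinase partner of D-type cyclins, was the one that rose, with 96.1, 137, 109 and 114 CPM in dividing cells and 62, 62.4, 48.9 and 28.8 in resting cells. Its log2 fold change was 1.11 ± 0.24 (edgeR adjusted p = 0.00436), and 0.80 without passing after thinning. Csf1r, the receptor that keeps microglia alive and renewing, was lower, with 1272, 1259, 1434 and 1723 in dividing cells and 2214, 2234, 2706 and 2171 in resting cells. The sides did not overlap at a log2 fold change of -0.76 ± 0.12 (edgeR adjusted p = 0.00049), but sides called after thinning gave -0.10. Ccnd1, the D-type cyclin, averaged 213 ± 50.9 in dividing and 177 ± 45.5 in resting cells (SD, n = 4 each) and did not pass. Of 19 cycle inhibitors and quiescence genes, 9 were fitted. Cdkn2d, an inhibitor of Cdk4 and Cdk6 that is known to peak in S phase, rose by 1.55, and by 1.77 after thinning. Btg2, an antiproliferative immediate early gene, had 1363, 1231, 1481 and 1742 in dividing cells and 3332, 2522, 3880 and 3194 in resting cells. It fell by 1.19 on the log2 scale in edgeR (adjusted p = 4.55e-06), with -0.20 after thinning. Btg1 and Klf2 fell by 0.62 and 0.45 and stood at -0.57 and 0.13 after thinning without passing, and Cdkn1a and Cdkn1b did not pass.

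**Figure D3:**
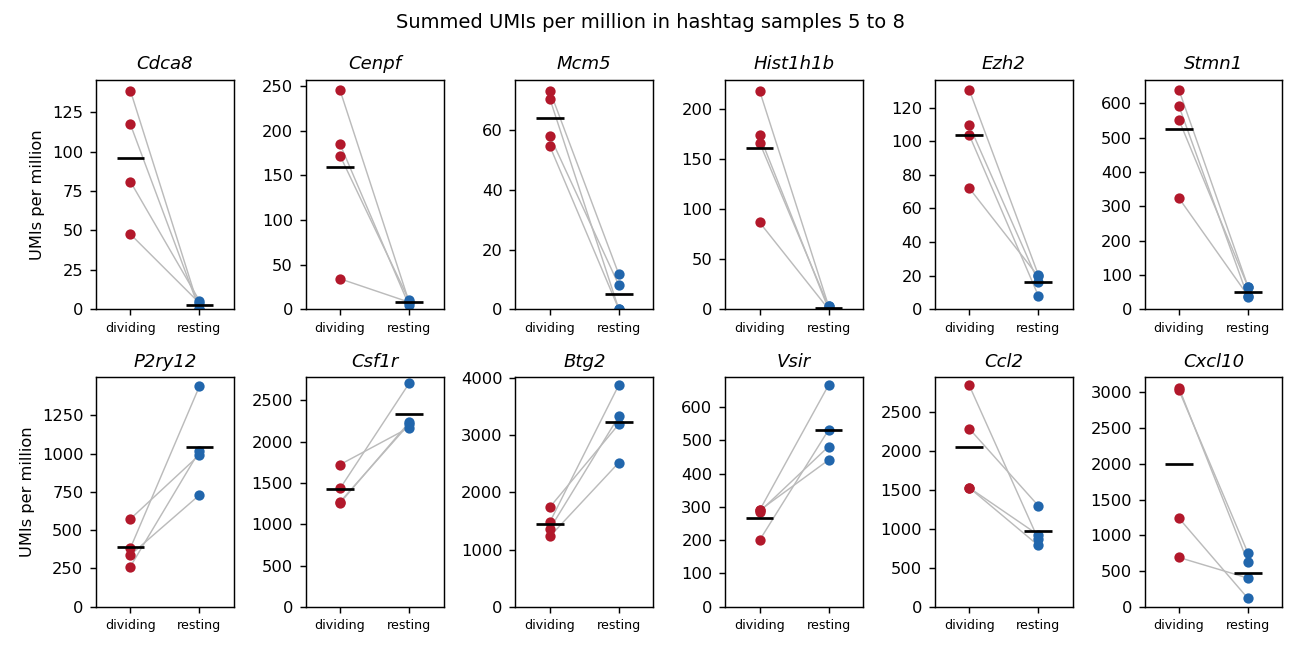
Points give the level in CPM of 12 genes in hashtag samples 5 to 8, dividing cells (red) left of resting cells (blue), with lines joining the sides of a sample and bars at the means. The genes were picked from those named in the text, so how far the sides stand apart is a description of these genes only. The sides overlap for Cxcl10.

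Genes of microglial identity were lower in dividing cells in the first calling, and most did not pass in the second. Cx3cr1, the fractalkine receptor, had 1178, 1160, 1325 and 1946 CPM in dividing cells and 2627, 2374, 3600 and 2779 in resting cells. The sides did not overlap, and the log2 fold change was -1.08 ± 0.13 (edgeR adjusted p = 6.16e-05), but sides called after thinning gave -0.04. Of the 23 homeostatic genes, all fitted, 19 fell and 0 rose, with a median log2 fold change of -0.88. Adgrg1, Slco2b1, Slc2a5, Ltc4s and Txnip fell by 1.42, 1.26, 1.18, 1.14 and 1.14. Sides called after thinning left a median of -0.10 for the homeostatic list, with 1 of 23 lower. With resting cells matched to the dividing cells on total UMIs, where 5.21% of 3705 genes were higher and 5.88% lower, 14 of 23 were lower at a median of -0.69. This matching did not make depth equal, and dividing cells were still deeper in each pair. Median UMIs were 15760 against 9105 in sample 5 and 13967 against 7460 in sample 6. They were 24048 against 8652 in sample 7 and 12177 against 7497.5 in sample 8. With all cells thinned to 2000 UMIs before summing, where 5.95% of 891 genes were higher and 7.97% lower, 9 of the 21 fitted were lower at a median of -0.73. The 6 genes of the identity gate were used by the rule, and a deeper cell can pass the gate at a lower level of them, so they are described and not tested. P2ry12, the purinergic receptor of ramified microglia and one of them (chr3:59216271-59262985), had 263, 338, 383 and 573 CPM in dividing cells and 1016, 729, 1438 and 991 in resting cells. With the dividing side held to the 52 cells with 10 or more cycle UMIs, in 6 hashtag samples with at least 5 cells a side, 223 of 2514 genes were higher (8.87%) and 192 lower (7.64%), the lower ones including 11 of the 22 homeostatic genes fitted, at a median of -0.74. The dividing cells of that comparison were again deeper in each of its 6 pairs, and the part of depth in it was not tested.

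Immediate early genes, which dissociation of tissue is known to induce, were lower as well, 14 of the 17 fitted of 18. Over all genes tested 9.99% were lower. Jun had 3339, 2682, 3775 and 4131 CPM in dividing cells and 7193, 5726, 8526 and 6582 in resting cells, a log2 fold change of -1.05 ± 0.09 (edgeR adjusted p = 3.42e-06). Jund, Dnajb1, Egr2, Ier5 and Hspa1a fell by 1.23, 1.17, 1.16, 1.06 and 1.02. After thinning the median of the list was -0.20, against -0.80 before, and Jund and Junb passed. The genes outside the lists that fell most in every pair were Lpin1, Agmo, Bank1, Mlph, Plxna4, Abca9, Sox4, Csmd3, Col27a1 and Atp8a2, with log2 fold changes of -2.48 to -1.51. Lpin1, a phosphatidate phosphatase, had 2.53, 12.2, 0 and 8.15 in dividing cells and 40.4, 35.1, 35.9 and 41.1 in resting cells. Of these 10, Abca9, Sox4, Csmd3 and Col27a1 were fitted after thinning, at -0.55, -0.28, -0.01 and -0.36, and did not pass.

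**Figure D4:**
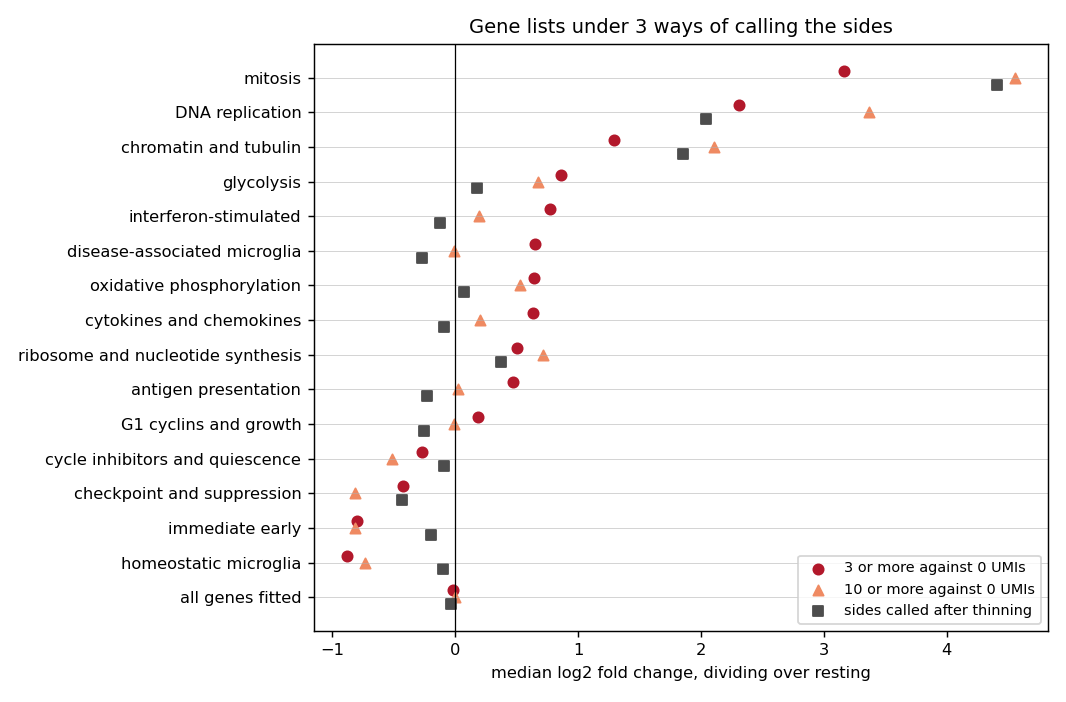
Symbols give the median log2 fold change of each gene list over its fitted members, dividing over resting, for the rule as given (circles), for 10 or more cycle UMIs (triangles) and for sides called after thinning (squares). The medians of mitosis, replication and chromatin genes are above 1 in all 3, while the homeostatic median moves to -0.10 after thinning. The fitted members differ between the settings, with 13, 18 and 26 mitosis genes and 17, 3 and 8 replication genes in the order given. The filter on low counts passes a gene on the side where it is high, so the mitosis and replication medians carry little weight.

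The chemokines Ccl2, Ccl3, Ccl4 and Cxcl10 were higher in dividing microglia in both callings. Ccl2, a ligand of Ccr2 (chr11:82035577-82037452), had 2834, 1524, 1524 and 2280 CPM in dividing cells and 865, 920, 786 and 1295 in resting cells. Ccl3, a chemokine of the inflammatory response, had 4067, 2023, 2192 and 3058 in dividing cells and 1643, 1735, 981 and 1365 in resting cells. Neither gene's sides overlapped, and the log2 fold changes were 1.01 ± 0.15 (edgeR adjusted p = 0.000422) and 0.92 ± 0.15 (edgeR adjusted p = 0.000794). Sides called after thinning gave 1.16 and 0.97, both passing and higher in 4 of 4 pairs. Cxcl10, the interferon-induced ligand of Cxcr3 (chr5:92346638-92348889), had 3061, 690, 1239 and 3028 in dividing cells and 622, 402, 117 and 752 in resting cells. The sides overlapped because sample 8's resting cells exceeded sample 6's dividing cells, but every pair was higher, at 2.04 ± 0.27 (edgeR adjusted p = 0.000106) and 1.66 ± 0.31 after thinning (edgeR adjusted p = 0.0057). Ccl4 rose by 0.70, and by 0.91 after thinning. Among cells with at most 1 UMI of Ms4a7, where 479 of 4018 genes were higher (11.9%) and 428 lower (10.7%), Ccl2, Ccl3, Ccl4 and Cxcl10 stood at 1.19, 1.12, 0.86 and 2.51 and all passed. With 10 or more cycle UMIs, Ccl2 passed (1.29 ± 0.20 on the log2 scale, edgeR adjusted p = 0.00104, higher in 6 of 6 pairs), and Ccl3, Ccl4 and Cxcl10 stood at 0.79, 0.58 and 1.66 without passing. Of all 22 cytokine and chemokine genes 18 were fitted, of which 8 rose and 2, Tnfaip3 and Icam1, fell. Ccl5, Ccl12 and Cxcl9, at 0.64, 0.33 and 1.29, did not pass in the first calling (edgeR adjusted p = 0.235, 0.266 and 0.219). Ccl7, Cxcl2 and Tnf rose by 1.76, 1.12 and 0.95 in the first calling and stood at 0.19, -0.71 and 0.52 after thinning, none of them passing. After thinning Ccl12, another Ccr2 ligand, also passed upward (1.16), and Ccl5 and Il1b passed downward (-2.99 and -1.63).

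Interferon-stimulated genes were higher in the first calling. Of 34 genes 31 were fitted, and 13 rose and 0 fell, with a median log2 fold change of 0.77. Isg15, a ubiquitin-like protein, had 915, 618, 324 and 693 CPM in dividing cells and 434, 199, 124 and 280 in resting cells, so the sides overlapped while each pair was higher (1.30 ± 0.15, edgeR adjusted p = 3.63e-05). Ifitm3, an antiviral membrane protein, rose by 1.33. After thinning the median was -0.12, with Isg15 at -0.39 and Ifitm3 at -0.54, and of 32 fitted Cxcl10 alone passed upward and Cxcl9 downward (-2.30). Among the antigen presentation genes 4 of 19 fitted of 22 rose, namely Psmb8, Psme1, Psme2 and Tap1 of the immunoproteasome and peptide transport, by 0.53 to 0.89, and 0 passed after thinning. Of the 21 disease-associated microglia genes 18 were fitted, 9 rose and 1 fell. Lpl and Spp1 rose by 1.93 and 1.84, with Spp1 at 597, 1914, 317 and 48.9 in dividing cells and 191, 464, 19.6 and 61.7 in resting cells, where sample 8 ran the other way. After thinning Lpl stood at 0.38 and Spp1 at -0.23, neither passing. Apoe and Lyz2 rose by 0.85 and 0.94 but stood at -0.85 and -1.21 after thinning, and at -0.15 and 0.05 among cells with at most 1 UMI of Ms4a7. Trem2, a lipid-sensing receptor, fell by 0.72 (edgeR adjusted p = 0.00187) and stood at -0.26 after thinning.

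Metabolic genes were higher in the first calling. Of 15 glycolysis genes 13 were fitted and 8 rose. Gapdh had 1742, 1849, 1591 and 1726 CPM in dividing cells and 700, 803, 577 and 929 in resting cells, a log2 fold change of 1.18 ± 0.13 (edgeR adjusted p = 1.9e-05). Pgk1, Slc16a3, Pkm, Eno1 and Pgam1 rose by 1.33, 1.15, 1.06, 1.02 and 0.86. Of 15 oxidative phosphorylation genes, all fitted, 11 rose, among them Atp5g1 (0.98), Cox5a (0.94) and Uqcrq (0.89), which stood at 0.26, -0.11 and 0.28 after thinning. After thinning the medians of these lists were 0.17 and 0.07, against 0.86 and 0.64 before, and 0 members passed. Of 14 ribosome and nucleotide synthesis genes 12 were fitted and 5 rose. Ncl, or nucleolin, had 776, 729, 872 and 769 in dividing cells and 547, 479, 404 and 493 in resting cells, and was called both before thinning (0.67 ± 0.14, edgeR adjusted p = 0.00407) and after it (0.63). Nme1, a nucleoside diphosphate kinase, rose by 1.28 and stood at 0.37 after thinning. Of 15 cholesterol synthesis genes, Hmgcs1 and Insig1 were fitted and neither passed.

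Vsir, which encodes VISTA, a target of the study's treatment (chr10:60346851-60430294), was lower in dividing microglia. It had 200, 289, 289 and 285 CPM in dividing cells and 531, 440, 665 and 481 in resting cells. The sides did not overlap, and the log2 fold change was -1.03 ± 0.16 (edgeR adjusted p = 0.00049). It was -0.90 ± 0.19 after thinning (edgeR adjusted p = 0.0124, lower in 4 of 4 pairs), -1.32 ± 0.23 with 10 or more cycle UMIs (edgeR adjusted p = 0.00279, lower in 6 of 6 pairs) and -1.17 with at most 1 UMI of Ms4a7. Cd274, which encodes PD-L1, the other target, had 73.3, 27.2, 46.9 and 139 in dividing cells and 59.3, 46.8, 22.8 and 41.1 in resting cells. Its sides overlapped, and it did not pass (0.58 ± 0.33, edgeR adjusted p = 0.234). Of the 13 checkpoint and suppression genes 9 were fitted, and Lag3, Sirpa and Entpd1 fell with Vsir, with log2 fold changes of -1.48, -0.76 and -0.76. After thinning 2 of the 9 fitted members were lower, Vsir among them, where 2.72% of all genes fitted were lower. Lag3, Sirpa and Entpd1 then stood at -0.06, -0.76 and -0.43 and did not pass.

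Markers of other cell types were given by their summed level in the 4 pairs. The 11 monocyte and macrophage markers summed to 679 to 1989 CPM in dividing and 258 to 1043 in resting cells, and Cd163 alone was at 0 in dividing cells. Of the 7 that were fitted Ccr2, Thbs1 and Fn1 rose, by 1.73, 1.78 and 2.34. After thinning Thbs1, Ms4a7 and Plac8 fell, with log2 fold changes of -4.62, -2.50 and -2.43, Ccr2 stood at -1.61 without passing, and Fn1 stood at 0.37. Of the markers that rose in the first calling, Fn1 kept its direction after thinning without passing, and Thbs1 and Ccr2 did not keep theirs. The 6 neutrophil markers summed to 50.8 to 78.8 in dividing and 140 to 552 in resting cells. Csf3r, the receptor for granulocyte colony-stimulating factor, which microglia also express, fell by 1.44, and by 1.10 after thinning. The 7 carcinoma markers, among them Krt8, which the rule limits, summed to 10.9 to 46.2 in dividing and 11.7 to 48.5 in resting cells, with Krt18, Krt7 and Krt19 at 0 in dividing cells. The 4 B cell markers summed to 7.58 to 27.2 and 19.5 to 80.8, and the 8 T cell markers to 0 to 134 and 3.26 to 119. The part of these cells in the results was not tested.

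At the surface, few tags passed when scaled to all tags of the same cells, and more did when counted per cell. Of 35 antibodies 32 gave tags in these cells, and CD335, CXCR4 and KLRG1 gave 0. The tags the results turn on are read by the following 15-base oligonucleotides, taken from the deposited tag list, beside that of TMEM119, the microglial surface protein among the antibodies.
CD49d: cgcttggacgcttaa
CCR2-CD192: agtgcgatctgcaac
Ly6G: acattgacgcaacta
TMEM119: tcgaacatttccagg
CD49d, the alpha-4 integrin chain that microglia largely lack and cells from blood carry, made up 84.5, 65.7, 71.7 and 74.6 of 10000 tags in dividing cells of samples 5, 6, 7 and 8 and 50.6, 32.9, 22.8 and 27.2 in resting cells. The sides did not overlap, and CD49d was the 1 tag of 32 that was higher (3.12%), with a log2 fold change of 1.16 ± 0.31 (edgeR adjusted p = 0.0105). An exact sign-flip permutation test over the 4 pairs, on both sides, gave p = 0.125, the smallest that 4 pairs allow. CCR2-CD192 and Ly6G were lower (6.25%), at -0.94 ± 0.28 (edgeR adjusted p = 0.0214) and -0.86 ± 0.28 (edgeR adjusted p = 0.0296). CCR2-CD192 made up 12.6, 7.86, 10.3 and 14.8 of 10000 tags in dividing cells and 17.5, 19.1, 28 and 20.1 in resting cells. These are the monocyte receptor and a neutrophil protein, and counted per cell their log2 fold changes were 0.0036 and 0.099. CCR2-CD192 gave 3.08, 2.07, 2.08 and 2.46 tags a cell in dividing and 2.72, 2.45, 1.87 and 2.58 in resting cells. Dividing cells carried more tags in all, 2447, 2639, 2016 and 1659 a cell against 1550, 1280, 667 and 1281. Counted per cell, 13 of the 32 antibodies were higher in dividing cells and 0 lower, CD49d among the higher ones at a log2 fold change of 2.11. The T cell proteins CD3 and CD8a and the tag NK1.1 were also among them, at 0.71, 0.98 and 0.96. The increase per cell was thus not particular to CD49d. No tag passed with the sides called after thinning, where CD49d turned to -0.66 (edgeR adjusted p = 0.45), and none passed with at most 1 UMI of Ms4a7, where it stood at 0.95. Leaving out sample 6, 7 or 8 also ended the CD49d call, with log2 fold changes of 1.38, 1.00 and 1.57. TMEM119 made up 12.4, 10.9, 8.39 and 8.79 of 10000 tags in dividing cells and 9.68, 15.9, 20.9 and 12.8 in resting cells and did not pass (-0.53 ± 0.29, edgeR adjusted p = 0.28). CD11c, CD44, CD45 and I-A-I-E stood at 1.05, 0.75, 0.33 and 1.31 without passing. PD-L1 stood at -0.49 and did not pass either. With the sides called after thinning the PD-L1 tag stood at -1.47 ± 0.24, close to the threshold without passing (edgeR adjusted p = 0.0573). With at most 1 UMI of Ms4a7 it stood at -0.0050.

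**Figure D5:**
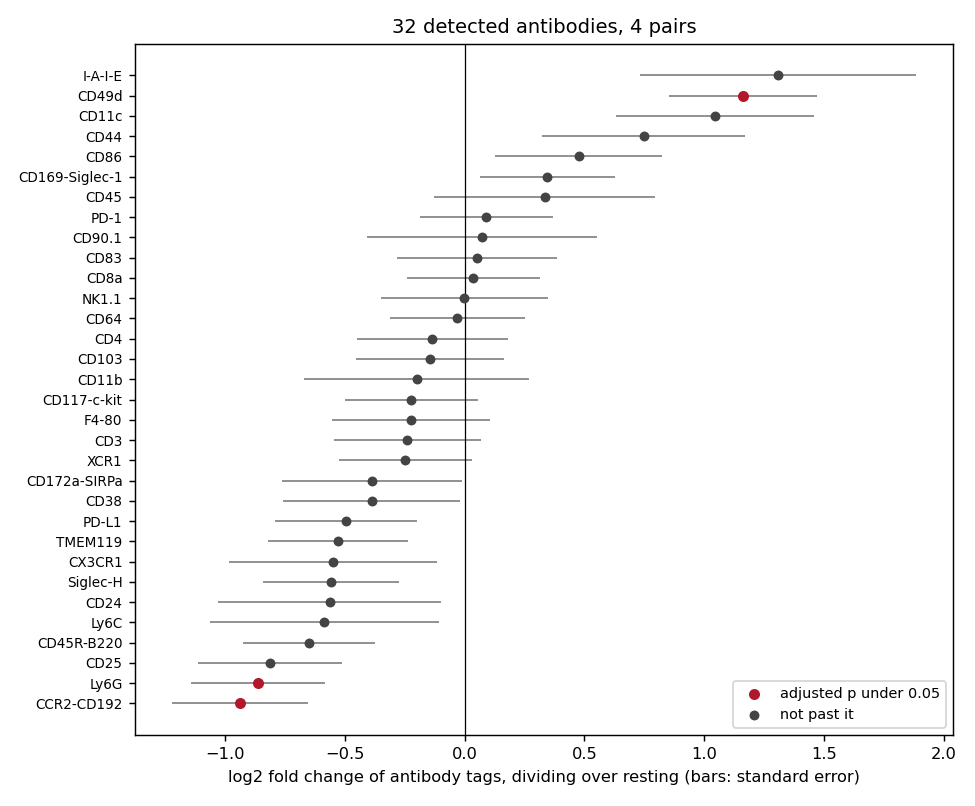
Points give the log2 fold change of each of 32 antibody tags, dividing over resting, with bars of 1 standard error over 4 pairs. CD49d (1.16), CCR2-CD192 (-0.94) and Ly6G (-0.86) pass an adjusted p of 0.05 (red).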

How the data were processed

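The deposited files hold raw counts of UMIs per gene and of antibody and hashtag tags per barcode, made by the authors with Cell Ranger 3.1, Seurat 3.1.1 and build mm10 per the submitters' processing notes; the sources used here do not give the annotation. Counts of microglia were summed per hashtag sample and side, and 4578 of 14404 genes passed edgeR's filterByExpr. They were tested with edgeR 4.0.16 (R 4.3.3; quasi-likelihood, TMM, the hashtag sample as a block) with Benjamini-Hochberg adjustment at 0.05, and DESeq2 1.42.0 was an alternative. The dividing and resting cells paired here share 1 hashtag sample, and the correlations of their deviations were 0.0375, 0.1627, 0.07741 and 0.1184. Standard errors are the log2 fold change over the square root of F. Intervals and floors cover counting error only. On simulated counts for this comparison the test recovered 63% of genes changed by 1 (log2, 4346 genes) and 98.5% changed by 2 (4350 genes), with 3.817 and 4.369% false calls. No doublet caller was run. The hashtag share, the upper UMI limit and the Krt8 limit can leave out doublets, but how many was not measured. Summed depth was 255873 to 736152 UMIs in dividing and 243251 to 371217 in resting cells of a pair. Named by a written rule were the 10 rule genes, up to 6 members of each list (those past the threshold with the largest changes, then the most abundant), the 10 largest increases and decreases outside the lists with at least 10 CPM on the higher side and 1 direction in every pair, Vsir, Cd274, Cxcl10 and all antibodies. Some genes that this rule names are not reported here. Other named genes were chosen after their values were seen. The members and lists were chosen with earlier results of these data known. Python 3.11.15, pandas 2.3.3, numpy 2.4.6 and scipy 1.17.1 were used.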

Additional observations from a re-analysis of the deposited data

Results flagged for a closer look

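Of 152 sets of values over hashtag samples checked for a sample far from the others, 8 had one. Chance gives about 1 in 20 (5%), so this count is near what chance alone gives. The values are log2 ratios of the dividing to the resting side within a hashtag sample, with 1 added to each level. Lpl, a lipoprotein lipase, stood at 4.25 in sample 6 against 1.1 to 1.55 in the others, and Ccl3 stood at 0.221 in sample 6 against 1.16 to 1.31. Ifitm3 stood at 2.63 in sample 7 against 0.879 to 1.07, and Psme1 at 0.731 in sample 7 against 0.497 to 0.533. Jun stood at -0.672 in sample 8 against -1.18 to -1.09, and Agmo at -3.35 in sample 8 against -1.98 to -1.7. Among the tags, CD117-c-kit stood at -1.07 in sample 8 against -0.000515 to 0.175, and CD90.1 at 0.978 in sample 7 against -0.251 to -0.0664. Neither tag passed the test.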

How the results depend on the processing

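The numbers of higher and lower genes, 455 and 456, were 142 and 153 with DESeq2, 53 and 71 when cells were thinned to 2000 UMIs before summing, 193 and 218 with resting cells matched on total UMIs, 159 and 94 with the sides called after thinning, and 17 and 6 with at least 90% of hashtag counts from 1 hashtag, which leaves 2 pairs. They were 223 and 192 with 10 or more cycle UMIs and 213 and 161 with the identity genes counted after thinning, both chosen after seeing the data. With no filter 746 were higher, and with no UMI of Krt8 or Krt18 287 were lower. Without the hashtag sample as a block, that is with no pairing, they were 408 and 435, and the 1 higher and 2 lower tags became 0 and 0. Leaving out 1 hashtag sample gave 239 to 471 higher and 209 to 367 lower genes, and 0 to 1 tags each way. Higher and lower tags were also 0 and 0 with 5 or more cycle UMIs, matched cells, the 90% hashtag limit, sides called after thinning, at most 1 UMI of Ms4a7 (the last 2 chosen after seeing the data) and the exact sign-flip permutation test; per cell they were 13 and 0, and as a share of all tags 0 were lower. The dividing share of 27.8% was 12.6% after thinning, 17.1% with 5 or more cycle UMIs, 10.5% with 10 or more (added after seeing the data) and 41.1% with the 90% hashtag limit. Signs turned for these named results. With sides called after thinning the log2 fold changes were -0.28 for Axl, -0.65 for Ccl6, -0.11 for Cox5a, -0.71 for Cxcl2, -0.16 for Cycs, -0.32 for Ifi211, -0.54 for Ifitm3, -0.32 for Irgm1, -0.39 for Isg15, 0.13 for Klf2, -1.21 for Lyz2, -0.23 for Psme1, -0.23 for Spp1, 0.16 for Tmem119, -0.66 for the CD49d tag and 0.46 for the CCR2-CD192 tag. With the 90% hashtag limit they were -0.32 for Ccl6, 0.001047 for Csf1r, -0.23 for Cycs, -0.0804 for Il1rn, 0.31 for Tmem119, 0.099 for the CCR2-CD192 tag and 0.34 for the Ly6G tag. With 10 or more cycle UMIs Lyz2 was -0.62, and per cell the CCR2-CD192 and Ly6G tags were 0.0036 and 0.099. The cause of these changes was not tested.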
